A study of Homo sapiens with 6 samples.

Results

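Glycolysis and the cellular response to low oxygen were examined through 41 genes measured by RNA sequencing in the human neuroblastoma line SK-N-AS. The genes were listed by function and not by a cutoff on measured values, but earlier results of these data were known when the list was made. The list holds 3 subunits of the hypoxia-inducible factors (HIF), 2 prolyl hydroxylases that act as oxygen sensors, 4 genes of glucose entry, 9 of upper and 6 of lower glycolysis, 6 of lactate and pyruvate handling and 11 further HIF targets. Each of the 41 genes was found once among the 58735 genes of the deposited tables. Their levels ran from 0.794 to 874.1 FPKM (fragments per kilobase of exon, relative to library size), and all 41 passed the filter of a mean of at least 1 FPKM, as 13718 genes did.

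Cells of this single established line received either siPrp19, an siRNA that targets the splicing factor gene *PRPF19*, or a negative control siRNA named NC. Each group has 3 libraries. The labels state that transfection lasted 72 h, and the study's methods describe a shorter one for its RNA sequencing. Those methods describe the samples of a group as biological replicates. They name more than 1 siRNA against Prp19, and the study states that the first was taken into its later assays in this line, while the labels name none.

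The group of 2 of the 6 libraries was contradictory. The tables carry the column headers NCa, NCb, NCc, siPrp19a, siPrp19b and siPrp19c, and in 4 tables the header is the description of another sample. NCb is the library labelled siPrp19 replicate 1, and siPrp19b is the library labelled NC replicate 3. In the other 4 libraries the label and the header state the same group. *PRPF19* went against both contradictory labels: it stood at 83.0, 83.1 and 93.0 FPKM in NCa, NCb and NCc, and at 19.6, 19.1 and 18.5 FPKM in siPrp19a, siPrp19b and siPrp19c. Libraries are called here by their headers, and the comparison by column header is given first. The 4 libraries whose label and header are alike (NCa and NCc against siPrp19a and siPrp19c) and all 6 libraries as labelled stand beside it. All 3 comparisons share libraries and are no independent support for each other.

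Between 14887132 and 19977811 reads were recovered per library from the deposited values, and the number of reads in a library limits the precision of its low values. The libraries were not equally far apart. Between NCa and NCb the chi-square per degree of freedom of the recovered reads was 1.67, and between siPrp19b and siPrp19c it was 2.45, against 16.1 to 41.3 for the other 13 pairs of libraries. Each of these close pairs joins opposite labels, a single header group and, in the labels, the same replicate number (1 for NCa and NCb, 3 for siPrp19b and siPrp19c), so the spread within the header groups rests in part on libraries that nearly coincide. Reads of mitochondrial genes made up 8.29% of siPrp19a and 5.15% to 5.49% of the other libraries. The sum of all FPKM values was highest in NCc, at 316809, against 279221 to 302517 elsewhere. Of the 41 genes, 28 had their highest NC value in NCc. Among the markers of the labelled cell type, *HAND2*, which encodes a transcription factor of the sympathetic lineage, stood at 117.4 to 169.9 FPKM, whereas *TH*, the gene of tyrosine hydroxylase, stood at 0.312 to 0.662 FPKM. The lymphocyte gene *CD3E* was at 0 in every library.

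Glycolysis converts glucose to pyruvate in the cytosol. Facilitative transporters bring glucose in, hexokinases trap it as a phosphate, and lactate dehydrogenase and monocarboxylate transporters dispose of the pyruvate as lactate when it does not enter mitochondria. Under low oxygen the prolyl hydroxylases no longer mark HIF alpha subunits for destruction, so the alpha subunit pairs with ARNT and binds DNA at the core letters ACGTG or GCGTG, which raises many of these transport and enzyme genes. Neuroblastoma cells, like many tumor cells, make lactate also when oxygen is present, and HIF2 alpha, the product of *EPAS1*, is known from immature cells of the sympathetic lineage.

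By column header, 3 of the 41 genes changed: *SLC2A3* and *ENO2* rose and *LDHB* fell in siPrp19. In such bulk samples fewer cells of a kind and less RNA per cell cannot be told apart. These are 7.32% of the list, beside 7.94% of all genes tested (1089 of 13718, of which 353 or 2.57% were higher and 736 or 5.37% lower), by limma on log2(FPKM + 1) with Benjamini-Hochberg adjustment over all genes. A share that near to the background is no result about the list as a whole. The remaining 38 genes did not pass, and 11 of the 41 had an unadjusted p under 0.05 (26.8% of the list, 23.6% of all genes). The median log2 fold change of the 41 genes, siPrp19 over NC, was 0.03, and that of all genes tested was -0.02. The difference was smaller than 0.25 on the log2 scale for 35 of the 41 genes, 85.4% of the list beside 73.9% of all genes. NC and siPrp19 did not overlap for 16 genes, 9 of them higher and 7 lower in siPrp19, which is 39.0% of the list beside 31.3% of all genes (13.2% higher and 18.1% lower).

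**Figure D1:**
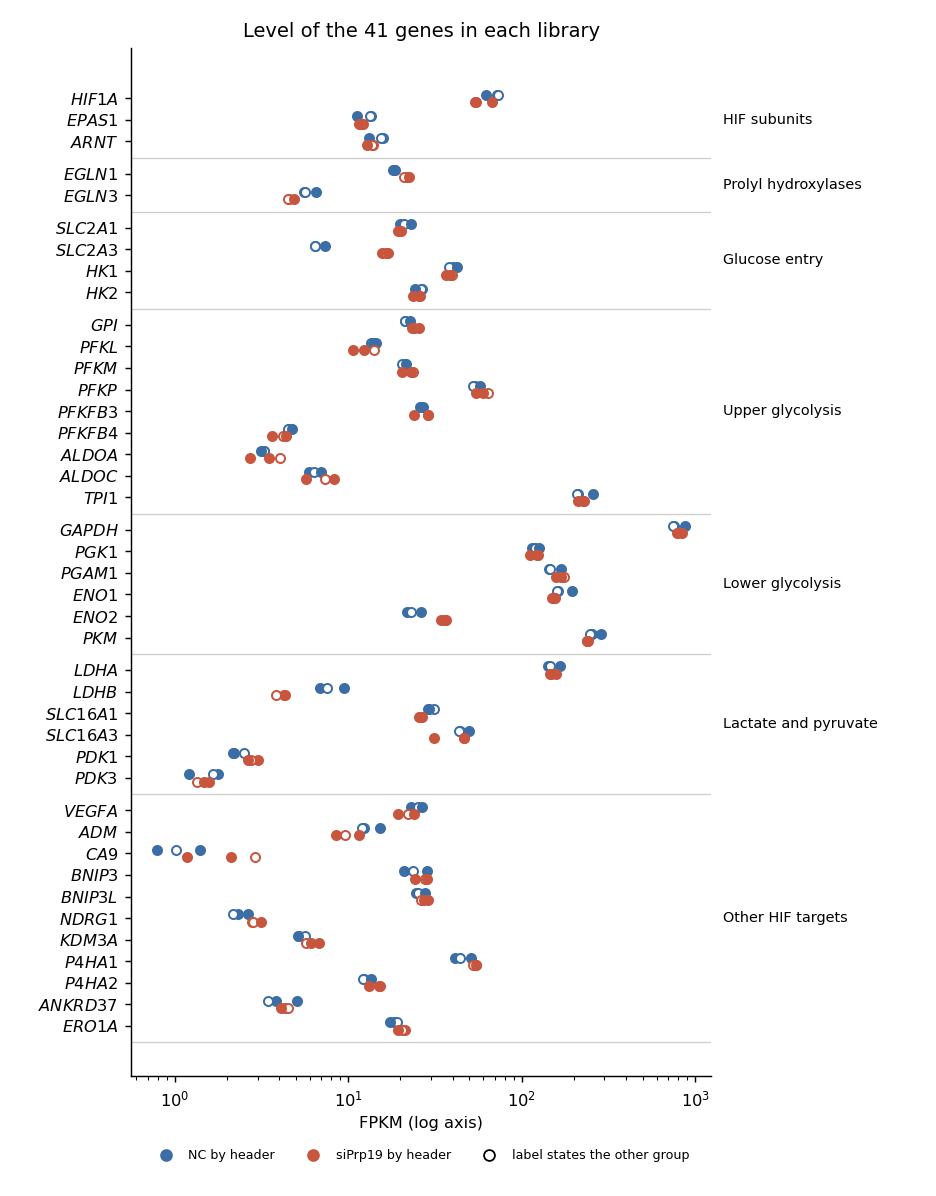
Level of each of the 41 genes in each library, in FPKM on a log axis, grouped by role. Blue points are the NC and red points the siPrp19 libraries by column header, and open points mark NCb and siPrp19b, whose labels state the other group. Only 3 genes, *SLC2A3*, *ENO2* and *LDHB*, show groups that stand apart and passed the test.

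These calls depend on the libraries counted. With the 4 libraries whose label and header are alike, none of the 41 genes passed by limma on log2(FPKM + 1), 3 had an unadjusted p under 0.05, and limma-voom on the recovered reads called 2 (*SLC2A3* and *LDHB*). In that comparison 0.0146% of all genes passed, 12.3% had an unadjusted p under 0.05, and voom called 2.09%. By header voom called 3 of the 41 genes, beside 9.91% of all genes. With all 6 libraries as labelled, none of the 41 genes passed with either tool and none had an unadjusted p under 0.05, while no gene of the 13718 passed and 1.39% had an unadjusted p under 0.05. *PRPF19*, the target of the siRNA, did not pass there either, with a log2 fold change of -0.74 ± 0.73 (SE). Each labelled group mixes libraries of both header groups, so the absence of calls as labelled cannot decide whether a gene changed. When each close pair of libraries was averaged and counted as 1, an alternative chosen after seeing the data, the comparison by header called 2 genes in all and none of the 41, of which 5 had an unadjusted p under 0.05. Leaving out siPrp19a, the library with the high mitochondrial share, kept all 3 calls. That fit left only the close pair siPrp19b and siPrp19c in its group, so it cannot show how firm the calls are.

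The first change in the order of the pathway was at glucose entry. *SLC2A3* (ENSG00000059804, chr12:7919230-7936275, minus strand, GRCh38) encodes GLUT3, a high-affinity glucose transporter that is best known from neurons. It was measured at 6.47, 6.45 and 7.36 FPKM in NCa, NCb and NCc and at 15.7, 16.6 and 16.9 FPKM in siPrp19a, siPrp19b and siPrp19c. Every siPrp19 library lay above every NC library. That places NCb and siPrp19b with their headers by definition and is no added support for that grouping. The mean rose from 6.76 ± 0.521 to 16.4 ± 0.595 FPKM (SD, n = 3 per group), which is 2.43-fold. The log2 fold change of FPKM + 1 was 1.17 ± 0.07 (SE; limma adjusted p = 0.00174), and it passed in every fit of the comparison by header that was run except the one that averaged the close pairs (adjusted p = 0.102). With the 4 libraries alike it was 1.13 ± 0.13 (SE; limma adjusted p = 0.0819), and with the 6 as labelled 0.34 ± 0.42 (SE).

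*SLC2A1* encodes GLUT1, the widely expressed basal glucose transporter and a classical HIF target. It stood at 19.8, 20.9 and 22.9 FPKM in NCa, NCb and NCc and at 19.3, 20.2 and 19.9 FPKM in siPrp19a, siPrp19b and siPrp19c. The groups overlapped, and the log2 fold change was -0.09 ± 0.07 (SE; limma adjusted p = 0.507). *SLC2A3* therefore made up 24.2% of the summed FPKM of both transporters in NC and 45.3% in siPrp19. The hexokinase genes *HK1* and *HK2*, whose products phosphorylate glucose, had log2 fold changes of -0.06 and -0.03 and did not pass.

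The second change was at the enolase step, which forms phosphoenolpyruvate. *ENO2* (ENSG00000111674, chr12:6913745-6923698, plus strand, GRCh38) encodes gamma enolase, also called neuron-specific enolase, a serum marker of neuroblastoma. Its values were 21.7, 23.0 and 26.2 FPKM in NCa, NCb and NCc and 34.4, 36.1 and 36.7 FPKM in siPrp19a, siPrp19b and siPrp19c. The groups by column header were separate. The mean rose from 23.6 ± 2.31 to 35.7 ± 1.22 FPKM (SD, n = 3 per group), or 1.51-fold, and the log2 fold change was 0.58 ± 0.08 (SE; limma adjusted p = 0.0112). This call was lost without NCa (adjusted p = 0.0573), NCb (0.0567), siPrp19b (0.0623) or siPrp19c (0.0625). With the 4 libraries alike the log2 fold change was 0.56 ± 0.15 (SE; limma adjusted p = 0.226), and as labelled it was 0.16 ± 0.23 (SE).

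*ENO1* encodes alpha enolase, the form found in most tissues, and was several times as abundant. It stood at 160.9, 159.2 and 194.5 FPKM in NCa, NCb and NCc and at 149.7, 154.6 and 154.9 FPKM in siPrp19a, siPrp19b and siPrp19c. Every siPrp19 value lay below every NC value, but NCc stood far above the other NC libraries and the log2 fold change of -0.16 ± 0.10 (SE) did not pass (limma adjusted p = 0.404). The share of *ENO2* in the summed enolase FPKM was 12.1% in NC and 18.9% in siPrp19.

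The third change was at lactate dehydrogenase. *LDHB* (ENSG00000111716, chr12:21635342-21757857, minus strand, GRCh38) encodes the B subunit, which predominates in heart and favors the use of lactate. It was measured at 6.84, 7.57 and 9.45 FPKM in NCa, NCb and NCc and at 4.27, 3.82 and 4.31 FPKM in siPrp19a, siPrp19b and siPrp19c. The groups did not overlap, and the NC libraries were spread more widely than the siPrp19 libraries. The mean fell by 48.1%, from 7.95 ± 1.35 to 4.13 ± 0.272 FPKM (SD, n = 3 per group), and the log2 fold change was -0.79 ± 0.12 (SE; limma adjusted p = 0.0111). The call was lost without siPrp19b (adjusted p = 0.0577) or siPrp19c (0.0505). With the 4 libraries alike the log2 fold change was -0.78 ± 0.17 (SE; limma adjusted p = 0.158), and as labelled -0.24 ± 0.30 (SE). Another gene on the same strand, AC010197.2, covers 33.4% of the exon bases of *LDHB* and was given at most 1 read in any library, so the reads of the shared bases cannot be placed from these tables and the level of *LDHB* is uncertain.

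*LDHA* encodes the A subunit, which favors the formation of lactate and is a classical HIF target. Its values were 142.2, 145.2 and 165.2 FPKM in NCa, NCb and NCc and 156.8, 147.9 and 145.5 FPKM in siPrp19a, siPrp19b and siPrp19c. The groups overlapped, and the log2 fold change was -0.01 ± 0.09 (SE; limma adjusted p = 0.979), with a 95% interval from -0.22 to 0.21. *LDHB* made up 4.98% of the summed FPKM of both subunits in NC and 2.68% in siPrp19.

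**Figure D2:**
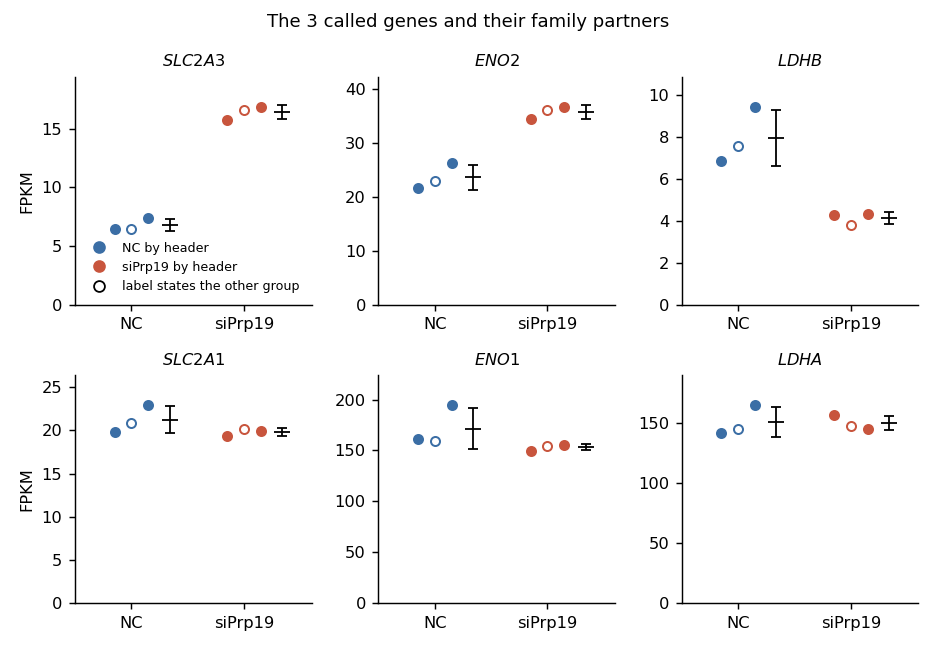
FPKM of *SLC2A3*, *ENO2* and *LDHB* (top) and of *SLC2A1*, *ENO1* and *LDHA* (bottom) in each library, with the mean and SD of each group by column header in black. Open points mark NCb and siPrp19b. *SLC2A3* rose 2.43-fold and *ENO2* 1.51-fold, *LDHB* fell by 48.1%, and *LDHA* and *SLC2A1* overlap between groups.

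A ratio of 2 genes within a library does not depend on how the libraries were scaled, and 13 such pairs were compared by column header. The groups did not overlap for 6 pairs. No share over other gene pairs was computed, so that count is no result about the pairs. Each of the 6 had p = 0.1 in a two-sided exact permutation test, the smallest that 3 against 3 libraries allow, and an adjusted p of 0.217 over the 13 pairs. They were the transporter, enolase and lactate dehydrogenase pairs above, *EGLN1* with *EGLN3*, *PFKFB3* with *PFKFB4*, and *PFKP* with *PFKL*. The first 3 of them each contain a gene called by header, so their separation is not independent of those calls. The log2 ratio of *SLC2A1* to *SLC2A3* fell from 1.65 to 0.27, that of *ENO1* to *ENO2* fell from 2.86 to 2.10, and that of *LDHA* to *LDHB* rose from 4.26 to 5.18. None of the 13 could have passed an exact test of this size.

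*SLC2A3*, *ENO2* and *LDHB* lie on chromosome 12, as do *TPI1*, *GAPDH* and *PFKM*. *TPI1* and *ENO2* are 42797 bases apart, *SLC2A3* lies 995532 bases from *ENO2*, and *LDHB* lies 14711644 bases from it. A part of the shared chromosome in these changes was not tested. *TPI1*, *GAPDH* and *PFKM* had log2 fold changes of -0.01, 0.03 and 0.08 and did not pass.

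The promoter windows were read for the core letters of HIF binding, since *ENO2* and *LDHA* are textbook HIF targets. Positions are counted from -1 at the base before the start. The 250 bases before the RefSeq start (GRCh38.p14) were available for 36 of the 41 genes and not for *SLC2A3*. ACGTG or GCGTG occurred on either strand in 23 of these 36 windows (63.9%), beside 55.9% of the windows of tested genes and 43.2% of all windows. ACGTG itself was in 15 of the 36, beside 22.7% of the windows of tested genes and 18.5% of all windows. CACGTG, the E-box that other factors bind, contains ACGTG on both strands and was held by 6.35% of all windows. No such letters were in the window of *LDHB*, which says only that they are not in those 250 bases. The *ENO2* window held ACGTG at position -118, in the first exon of the transcript ENO2-211, and the *LDHA* window held CACGTG at -185 and CACGTG with CACGT between -87 and -69, the latter in the first exon of LDHA-205. *LDHA* was chosen for display as the partner of *LDHB*, after its values were seen. The 30 bases around each are shown 5′ to 3′ with the motif letters in capitals, from chr12:6914449-6914478, chr11:18394366-18394395 and chr11:18394470-18394499, all on the plus strand.
ENO2 -118: cacccgcgctcgtACGTGcgcctccgccgg
LDHA -185: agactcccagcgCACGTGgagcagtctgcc
LDHA -87: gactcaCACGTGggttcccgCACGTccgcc
*ENO2*, with a single ACGTG, rose, whereas *LDHA*, with both stretches, did not pass. A match of letters is a description and not evidence of binding in these cells.

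The HIF subunits themselves did not pass the test by column header. *HIF1A* encodes HIF1 alpha, which is controlled mainly as a protein, and stood at 71.7, 72.8 and 62.1 FPKM in NCa, NCb and NCc and at 67.3, 54.8 and 53.7 FPKM in siPrp19a, siPrp19b and siPrp19c. The groups overlapped because NCc lay below siPrp19a, and the log2 fold change was -0.23 ± 0.11 (SE; limma adjusted p = 0.269), with a 95% interval from -0.50 to 0.03. *EPAS1* stood at 13.5, 13.4 and 11.3 FPKM in NCa, NCb and NCc and at 12.1, 11.9 and 11.5 FPKM in siPrp19a, siPrp19b and siPrp19c. *ARNT*, the shared beta subunit, stood at 15.8, 15.5 and 13.1 FPKM in NCa, NCb and NCc and at 13.8, 13.6 and 12.8 FPKM in siPrp19a, siPrp19b and siPrp19c. In all 3 subunit genes NCc was the lowest NC library and lay below at least 1 siPrp19 library. The log2 fold changes of *EPAS1* and *ARNT* were -0.09 and -0.13 (limma adjusted p = 0.563 and 0.424).

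The oxygen sensors had opposite signs. *EGLN1*, the gene of the main prolyl hydroxylase PHD2, stood at 18.1 to 18.7 FPKM in NC and 21.1 to 22.5 FPKM in siPrp19, with a log2 fold change of 0.23 (limma adjusted p = 0.0669). *EGLN3*, the gene of PHD3, stood at 5.89 ± 0.548 FPKM in NC and 4.65 ± 0.199 FPKM in siPrp19 (SD, n = 3 per group), with a log2 fold change of -0.28 (limma adjusted p = 0.0817). The groups were separate for both genes, neither passed, and quantile normalization of the libraries called *EGLN1* (0.32, adjusted p = 0.0315).

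**Figure D3:**
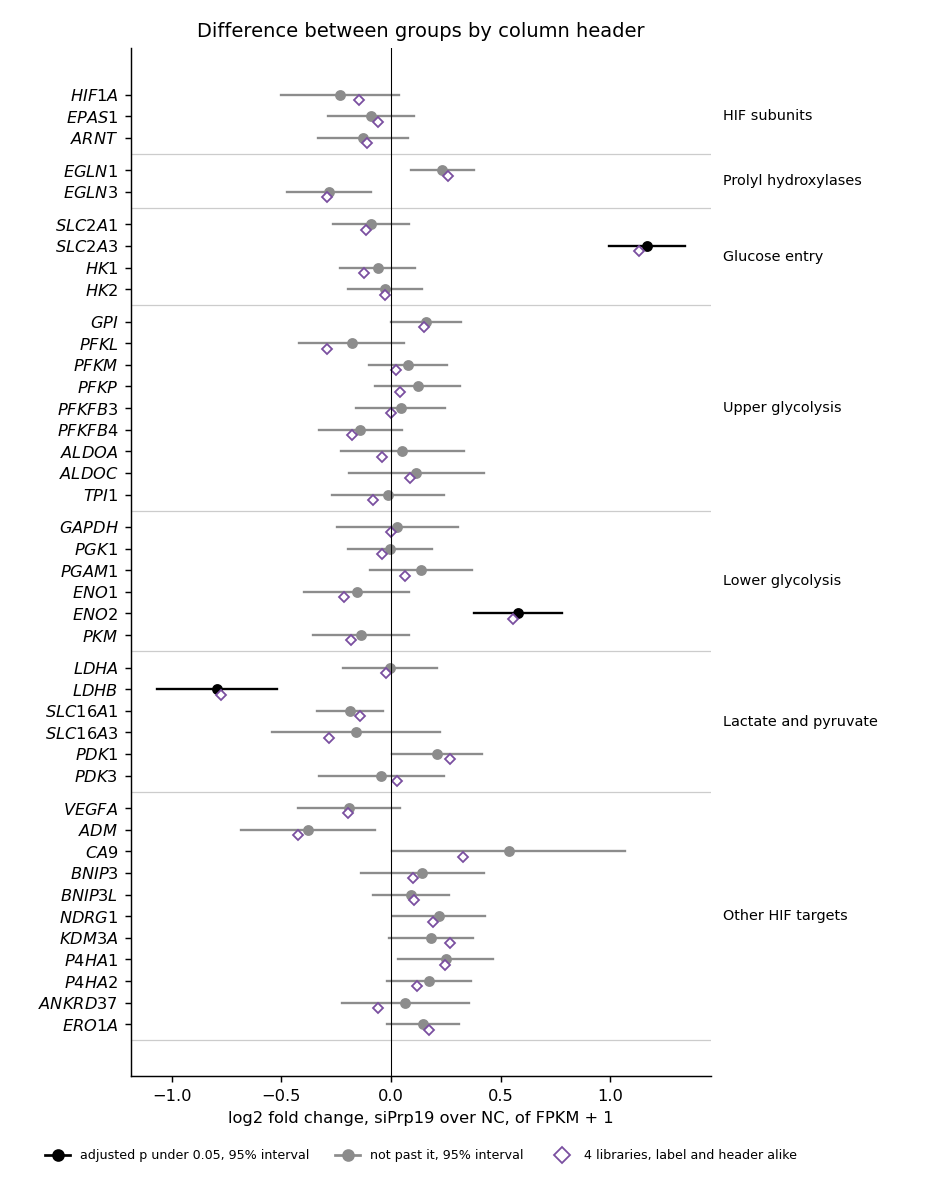
Log2 fold change of FPKM + 1, siPrp19 over NC by column header, for the 41 genes with the 95% interval of the limma fit. Black marks adjusted p under 0.05, grey the genes that did not pass, and open diamonds the fit to the 4 libraries whose label and header are alike. *SLC2A3* lies at 1.17, *ENO2* at 0.58 and *LDHB* at -0.79, and 35 of the 41 genes lie within 0.25 of 0.

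The abundant part of the pathway differed between the groups by less than the spread of the NC libraries. The summed FPKM of the 21 genes of glucose entry, glycolysis and lactate dehydrogenase was 2153 ± 180.5 in NC and 2157 ± 16.4 in siPrp19 (SD, n = 3 per group). *GAPDH*, *PKM*, *TPI1*, *ENO1*, *PGAM1*, *LDHA* and *PGK1* gave 85.6% to 87.8% of that sum in each library. *GAPDH*, the gene of the dehydrogenase step, is also a common reference gene and was the most abundant of the 41, at 745.7 to 874.1 FPKM, with a log2 fold change of 0.03 and a 95% interval from -0.25 to 0.31. *PKM*, which encodes muscle-type pyruvate kinase, stood at 248.0 to 287.6 FPKM in NC and 238.2 to 241.0 FPKM in siPrp19, separate but with a log2 fold change of -0.14 that did not pass. *TPI1*, the triose phosphate isomerase gene, *PGK1*, the phosphoglycerate kinase gene, and *PGAM1*, the phosphoglycerate mutase gene, had log2 fold changes of -0.01, -0.01 and 0.13.

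Quantile normalization took the median log2 fold change of the 41 genes from 0.03 to 0.13, while the median of all genes moved only from -0.02 to 0.01. It called *EGLN1*, *PGAM1* (0.31) and *P4HA1* (0.38) in addition to the 3 genes above. It also turned the sign of *HK1*, *HK2*, *TPI1*, *PGK1* and *LDHA* to positive values between 0.05 and 0.18, none of which passed, so no direction is given for these genes. Of all genes tested it called 501 higher and 586 lower, in place of 353 and 736.

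In the upper pathway, which ends at the triose phosphates, no gene passed with limma or with voom and none had an unadjusted p under 0.05. *GPI*, the glucose phosphate isomerase gene, stood at 21.2 to 22.7 FPKM in NC and 23.4 to 25.6 FPKM in siPrp19, with a log2 fold change of 0.16 (limma adjusted p = 0.216). Of the phosphofructokinase genes, which encode the committed step, the platelet form *PFKP* was the most abundant at 52.6 to 64.0 FPKM, ahead of the muscle form *PFKM* at 20.4 to 23.6 and the liver form *PFKL* at 10.7 to 14.5 FPKM. Their log2 fold changes were 0.12, 0.08 and -0.18. *PFKFB3* and *PFKFB4*, whose products set the level of a fructose bisphosphate that activates phosphofructokinase and is not its product, had log2 fold changes of 0.04 and -0.14. *ALDOA*, usually the main aldolase gene, was listed at only 2.73 to 4.07 FPKM, below the brain form *ALDOC* at 5.68 to 8.32 FPKM. The gene AC093512.2 covers 42.3% of the exon bases of *ALDOA* on the same strand and was itself given 40 to 70 reads, so the level of *ALDOA* is uncertain in the same way as that of *LDHB*.

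Among the genes of lactate and pyruvate handling other than *LDHB*, none passed. *SLC16A1* and *SLC16A3* encode the monocarboxylate transporters MCT1 and MCT4, the second of which is a HIF target suited to lactate export. *SLC16A1* stood at 28.9 to 31.3 FPKM in NC and 25.7 to 26.7 FPKM in siPrp19, with a log2 fold change of -0.19 (limma adjusted p = 0.134). *SLC16A3* was at 31.1 FPKM in siPrp19a and at 43.8 to 49.5 FPKM in the other 5 libraries, and its log2 fold change went from -0.16 to 0.03 without siPrp19a. The pyruvate dehydrogenase kinase genes *PDK1* and *PDK3*, whose products keep pyruvate out of mitochondria, stood at 2.16 to 3.02 FPKM and 1.21 to 1.77 FPKM. *PDK1* was separate between the groups with a log2 fold change of 0.21 (limma adjusted p = 0.199), and *PDK3* overlapped at -0.04.

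The 11 further HIF targets had a median log2 fold change of 0.14, with 9 positive and 2 negative values, and none passed with limma or with voom. In 4 of them the unadjusted p was under 0.05 (36.4%, beside 23.6% of all genes), namely *ADM*, *CA9*, *NDRG1* and *P4HA1*. *ADM*, the gene of the vasodilator peptide adrenomedullin, stood at 13.2 ± 1.82 FPKM in NC and 9.90 ± 1.51 FPKM in siPrp19 (SD, n = 3 per group) without overlap, with a log2 fold change of -0.38 (limma adjusted p = 0.130). *CA9*, the gene of the surface carbonic anhydrase used as a hypoxia marker, was the least abundant at 0.794 to 2.90 FPKM, or 21 to 80 reads, and its groups overlapped at a log2 fold change of 0.54 (limma adjusted p = 0.209). *P4HA1*, which encodes a collagen prolyl hydroxylase subunit, stood at 45.3 ± 5.13 FPKM in NC and 53.8 ± 0.977 FPKM in siPrp19 (SD, n = 3 per group). Its log2 fold change was 0.25 (limma adjusted p = 0.16), and it passed without NCc (0.34, limma adjusted p = 0.0268). That fit left only the close pair NCa and NCb in the NC group.

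*VEGFA*, the gene of the angiogenic factor and the best known HIF target, overlapped between the groups at 19.3 to 26.7 FPKM, with a log2 fold change of -0.19 (limma adjusted p = 0.293). *BNIP3* and *BNIP3L*, whose products mark mitochondria for removal, had log2 fold changes of 0.14 and 0.09. *NDRG1*, a stress response gene, had 0.22, the histone demethylase gene *KDM3A* 0.18, *P4HA2* 0.17, *ANKRD37* 0.06, and *ERO1A*, the gene of an oxidase of protein folding, 0.14. The groups were separate for *NDRG1*, *KDM3A*, *P4HA1*, *ERO1A* and *ADM* (45.5%, beside 31.3% of all genes) and overlapped for the other 6.

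**Figure D4:**
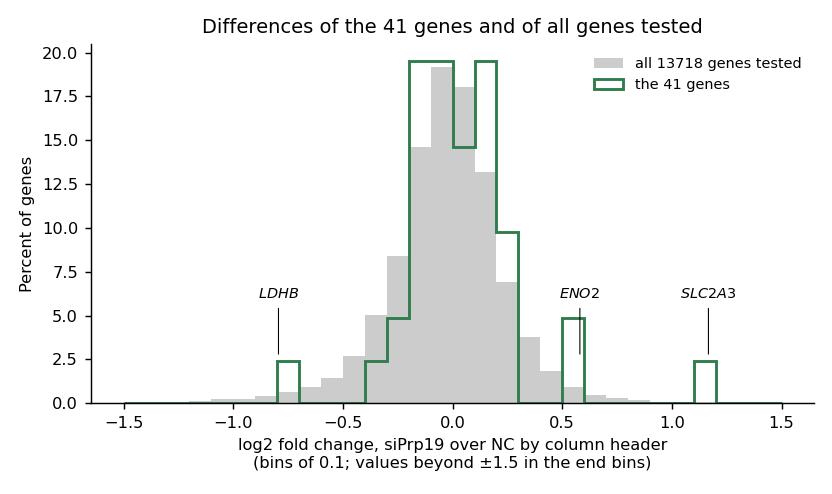
Distribution of the log2 fold change by column header, in percent of genes per bin of 0.1, for the 41 genes (green line) and for all 13718 genes tested (grey). Both centre near 0, with medians of 0.03 and -0.02, *SLC2A3* at 1.17 and *LDHB* at -0.79 lie apart from the remaining genes of the list, and *ENO2* at 0.58 shares its bin with *CA9* at 0.54.

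Beyond the 41 genes, 104 other genes of these pathways were listed, of which 78 could be tested. By column header 3 rose and 6 fell, 11.5% of those tested beside 7.94% of all genes, and voom called 10. With the 4 libraries alike none passed, 10 had an unadjusted p under 0.05 and voom called 1, and as labelled none passed with either tool or had an unadjusted p under 0.05. Of the 9 other genes of glycolysis and sugar transport that could be tested, *TXNIP*, which encodes an inhibitor of glucose uptake, rose with a log2 fold change of 0.38 (limma adjusted p = 0.0205). *FBP1*, the gene of the gluconeogenic fructose bisphosphatase, fell by 0.57 on the log2 scale (limma adjusted p = 0.0276) at 0.575 to 1.63 FPKM. None of the 12 genes of pyruvate entry into mitochondria passed with limma or with voom, and 2 had an unadjusted p under 0.05. Of the 14 pentose phosphate and glycogen genes, *GYS1*, the muscle glycogen synthase gene, rose with a log2 fold change of 0.32 (limma adjusted p = 0.0490).

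Of the 10 other HIF regulators tested, 2 fell and none rose, which is 20% called beside 7.94% of all genes (5.37% lower). *VHL* encodes the ubiquitin ligase subunit that recognises hydroxylated HIF alpha. It stood at 11.7 to 15.1 FPKM in NC and 7.14 to 8.42 FPKM in siPrp19, a log2 fold change of -0.71 (limma adjusted p = 0.0123). *CITED2*, whose product competes with HIF alpha for its coactivators, fell by 0.38 on the log2 scale (limma adjusted p = 0.0226). Of the 35 other HIF targets tested, 2 rose and 3 fell, which is 14.3% called beside 7.94% of all genes (2.57% higher and 5.37% lower). The secreted glycoprotein gene *STC2* rose with a log2 fold change of 0.44 (limma adjusted p = 0.0488), and *GYS1*, which stands in both lists, was the second. Among those that fell, *MXI1*, which encodes a MYC antagonist, and *TMEM45A* fell by 0.44 and 0.37 on the log2 scale (limma adjusted p = 0.0133 and 0.0397). The median log2 fold change of these 35 targets was 0.09.

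**Figure D5:**
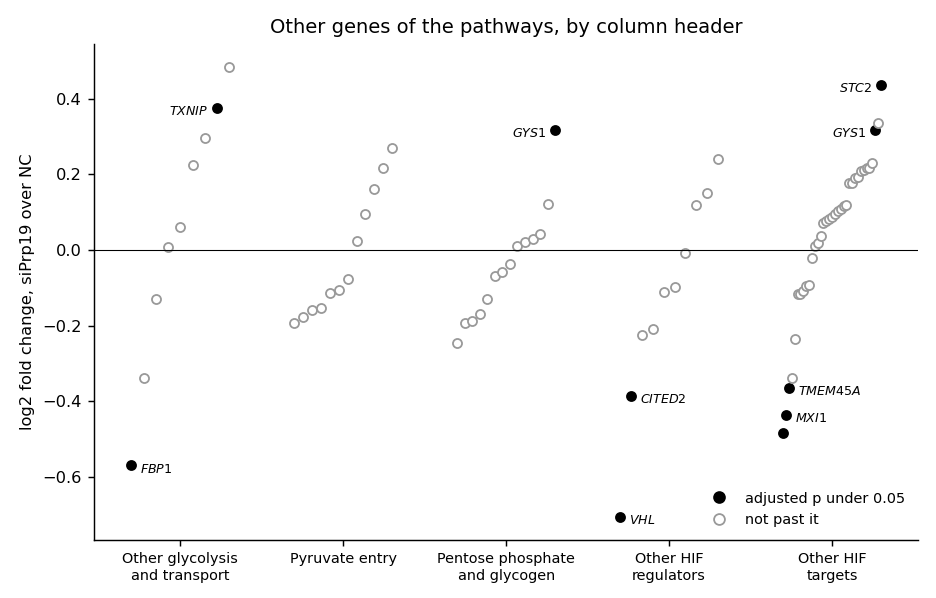
Log2 fold change by column header of the 78 other pathway genes that could be tested, in 5 lists, with 1 point per gene and list, sorted by value within the list. Filled points had an adjusted p under 0.05, and those described in the text carry a name. *VHL* lies lowest at -0.71, *STC2* is the highest of the genes that passed at 0.44, and *GYS1* is among the genes that appear in 2 lists.

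The summed levels of cell type markers were not tested, and those of the epithelial markers overlapped between the header groups. Of all genes tested, 2.57% were called higher and 5.37% lower by column header. The summed FPKM of 11 adrenergic neuroblastoma markers was 359.8 to 382.3 in NC and 301.7 to 307.9 in siPrp19. Of the 10 tested, 2 were called (20%), and *CHGB* was the gene that rose. The 5 fibroblast markers summed to 662.9 to 671.8 FPKM in NC and 522.9 to 601.2 FPKM in siPrp19, where *LUM* and *PDGFRB* fell among 4 tested (50%) and *COL1A2* was at or near 0. The 5 haematopoietic markers summed to 25.01 to 30.8 FPKM in NC and 17.0 to 20.6 FPKM in siPrp19. Nearly all of that was *PTPRC*, the gene of the leukocyte antigen CD45 and the only one of the 5 tested, which fell, whereas *CD3E* was at 0. The 6 mesenchymal markers summed to 208.1 to 235.2 FPKM in NC and 167.0 to 194.4 FPKM in siPrp19, and the 5 epithelial markers to 45.0 to 60.9 FPKM and 45.3 to 48.9 FPKM. None of the 5 tested mesenchymal markers and none of the 2 tested epithelial markers passed with limma or with voom, and 2 and 0 of them had an unadjusted p under 0.05. The part of these markers in the values of the 41 genes was not tested.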

How the data were processed

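RNA sequencing libraries of SK-N-AS cells (3 NC and 3 siPrp19) were made with the NEBNext Ultra kit from total RNA. The submitters' processing notes name HISAT2 2.0.5, featureCounts 1.5.0-p3 and hg38. The authors deposited 1 table per library of FPKM values per Ensembl gene, and their counting settings, strandedness and scaling between libraries are not given in the sources used here. Without strand, 20 of the 41 genes share exon bases with a gene on the opposite strand, and 9 share some on the same strand. Named pseudogenes of 18 members held at most 1.90% of the reads of their parent gene. The authors ran DESeq2 on their counts; FPKM do not allow that test.

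All 58735 gene identifiers matched GENCODE release 29, and 58207 had a current symbol. FPKM times merged exon length was a whole multiple of 1 constant per library for 100% of values above 0, within 0.01 of a read, which gave 14887132 to 19977811 reads per library. Total reads were 0.951 to 1.04 times the FPKM scale, so a scaling of unknown method is part of the values. Intervals are those of the limma fit, which counts the libraries as independent. In the comparison by header each group holds a close pair, so its intervals may be too narrow.

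Genes with a mean of at least 1 FPKM were tested on log2(FPKM + 1), which understates changes of low genes, with limma 3.58.1 in R 4.3.3 (moderated test, mean-variance trend, Benjamini-Hochberg over all tested genes, threshold 0.05). Groups came from the labels, and for the comparison by header from the sample whose description equals the column header. The choice of headers, the 41 genes, the lists and the pairs were made with earlier results of these data known. On simulated data with 200 genes changed 2-fold, 190 of them were among 206 calls by header and 149 among 171 calls with the 4 libraries alike. The simulated libraries were independent draws with a single fixed dispersion and held no close pairs. Only genes at a higher level than the test filter asks were changed. With the real 4 libraries alike 2 genes were called in all, so the simulation checks the code and does not give the recovery in these data. Ratios of gene pairs were tested with exact permutation tests in scipy 1.17.1. Alternatives were a pseudocount of 0.1, no filter, quantile normalization, equal sums, no trend, voom on recovered reads, a replicate block and leaving out each library. Averaging the close pairs was added after seeing the data.

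Values in every library are given for *PRPF19*, for members that passed by header and their pair partners, and for *HIF1A*, *EPAS1* and *ARNT*. Other members are given by level, range or fold change, and other pathway genes by up to 3 per list and direction with the largest change among those that passed. Deviations of same-lettered libraries correlated at r = 0.13, -0.05 and 0.20 for a, b and c. Those of same-numbered labels correlated at 0.39 and 0.32 for numbers 1 and 3, which are the close pairs, and at -0.17 for number 2. Since not every pair deviated together, no pairing was used. A few genes of the other lists are counted but not reported here by name.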

Additional observations from a re-analysis of the deposited data

How the results depend on the processing

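Over the 3 comparisons, 760 values were recomputed under an alternative. Of these, 691 kept their direction and side of the threshold, or their size where no test applied. The others were counted as reversed (31), weaker (23), stronger (12) or moved (3). These counts cover all the values and not the 3 calls by header in particular. With quantile normalization the member median was 0.13 by header, 0.10 with the 4 libraries alike and 0.0254 as labelled, and 6 members passed by header. Without the filter the genes called were 512 by header and 0 alike. With equal sums 679 genes were called by header. With voom 287 genes and 2 members were called in the 4 libraries alike. Averaging the close pairs left 2 genes and 0 members called by header. A replicate block, by letter for the headers and by number for the labels (numbers 1 and 3 are the close pairs, number 2 does not go together), called 928 genes and 4 members by header, the added member being *ADM* (-0.38, adjusted p = 0.0424), 0 genes alike (2868 at an unadjusted p under 0.05) and 0 as labelled.

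Leaving out 1 library gave 253 to 1354 genes and 1 to 4 members by header, and 0 to 70 genes alike (70 without siPrp19c). It called 264 genes without NCa, 335 without NCb, 270 without siPrp19b and 253 without siPrp19c, each of which is in a close pair. Where it left a group with 1 library, that library was assumed to vary like the others. What caused them was not tested.

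Signs turned for genes near 0. With quantile normalization *HK1* had 0.0496, *HK2* 0.0658, *TPI1* 0.13, *PGK1* 0.18 and *LDHA* 0.16. With equal sums *HK2* had 0.0115, *TPI1* 0.0296, *PGK1* 0.0359 and *LDHA* 0.0373, and with voom *TPI1* 0.0134, *PGK1* 0.0192 and *LDHA* 0.0221. *PDK3* had 0.0216 with close pairs averaged. Leaving out 1 library ranged over 0 for *HK2* (-0.0703 to 0.00851), *TPI1* (-0.0695 to 0.0836), *GAPDH* (-0.0129 to 0.10), *PGK1* (-0.0357 to 0.0383), *LDHA* (-0.0462 to 0.0614), *ALDOA* (-0.0513 to 0.17), *PFKFB3* (-0.000187 to 0.13), *PDK3* (-0.14 to 0.0192), *SLC16A3* (-0.26 to 0.0294) and *ANKRD37* (-0.0308 to 0.19). As labelled, *ENO2* ranged from -0.00212 to 0.36 and *LDHB* from -0.54 to 0.0153.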
